A study of Homo sapiens with 4 samples.

Results

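Cholesterol genes were followed in MDA-MB-231, a mesenchymal-looking human triple-negative breast cancer line long established in culture. The members were the 30 genes of a fixed list covering cholesterol synthesis, uptake and efflux, and each was found by its symbol among the 20263 Ensembl genes of the deposited count table. They comprised 18 synthesis enzymes, 4 genes of the SREBP machinery, 2 genes of uptake control and sterol transport, 4 genes of LXR signalling and efflux, and 2 genes that turn cholesterol into an oxysterol or an ester. The groups were cells given RB-BC, which the submitters present as derived from ribociclib, a CDK4/6 inhibitor, and cells given the vehicle DMSO. Each group held 2 libraries, and all cells were kept for 24 h in medium with 10% fetal bovine serum. Neither the dose nor the reason for the protocol's other name for the compound, Rib_CA, is given in the sources used here. The line was the only one used, and nothing states that the replicates were separate cultures, so the p-values below speak to library-to-library spread alone, and that spread may be technical. In such bulk RNA, fewer cells expressing a gene and less of its RNA per cell cannot be told apart.

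Cells make cholesterol from acetyl-CoA through mevalonate, farnesyl diphosphate, squalene and lanosterol, and they also take it up with lipoproteins, of which serum is a source. The transcription factor SREBP2 switches on synthesis and uptake genes when the endoplasmic reticulum membrane is poor in cholesterol. Its escort SCAP carries it to the Golgi for cleavage unless INSIG proteins hold the pair back. The nuclear receptors LXR alpha and LXR beta respond to oxysterols, which are hydroxylated cholesterols, and switch on exporters and a ligase that removes lipoprotein receptors from the cell surface.

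Library totals ran from 42752387 to 42786422 counts in RB-BC and from 34774542 to 37754168 in DMSO. Mitochondrially encoded genes took 10.1% and 10.3% of the counts in RB-BC 1 and RB-BC 2, against 8.68% in DMSO 1 and 21.7% in DMSO 2, so DMSO 2 stood apart. Of the 6 markers listed for the line, VIM, CD44, AXL, MSN and CAV1 averaged from 268 CPM (counts scaled to library size) upward in either group, whereas SPARC averaged 1.07 CPM in RB-BC and 0.758 CPM in DMSO. The 6 genes listed as low or absent in the line summed to between 23.0 and 23.2 CPM in RB-BC. In DMSO they summed to between 26.5 and 39.8 CPM. CDH1 had no more than 2 counts in any library, and ESR1 and PGR averaged at most 1.54 CPM in either group. EPCAM, FOXA1 and GATA3 were detected, averaging 5.75, 7.74 and 8.30 CPM in RB-BC and 9.05, 6.97 and 15.2 CPM in DMSO. Summed markers of leukocytes, fibroblasts, endothelial cells and hepatocytes stayed at or below 8.09 CPM in all 4 libraries.

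Of the 30 members, 29 passed the low-count filter, none of them with fewer than 46 counts in any library, and ABCG1 had no count at all. After RB-BC treatment 2 members rose and 5 fell, by edgeR's quasi-likelihood test at an adjusted p under 0.05 over all 13744 tested genes. The same test called 16.1% of all tested genes, 8.58% higher and 7.53% lower, so 53.3% of calls were higher, or 65.6% with library totals alone in place of TMM scaling. The risers were CH25H (ENSG00000138135) and NR1H3 (ENSG00000025434). The fallers were ABCA1 (ENSG00000165029), HMGCS1 (ENSG00000112972), MYLIP (ENSG00000007944), IDI1 (ENSG00000067064) and STARD4 (ENSG00000164211). The groups did not overlap for 15 of the 29 members, with 7 lying higher and 8 lower. Over all tested genes 65.2% did not overlap, 33.1% higher and 32.1% lower. The median log2 fold change of the 29 members was −0.02, against −0.0016 over all tested genes.

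**Figure D1:**
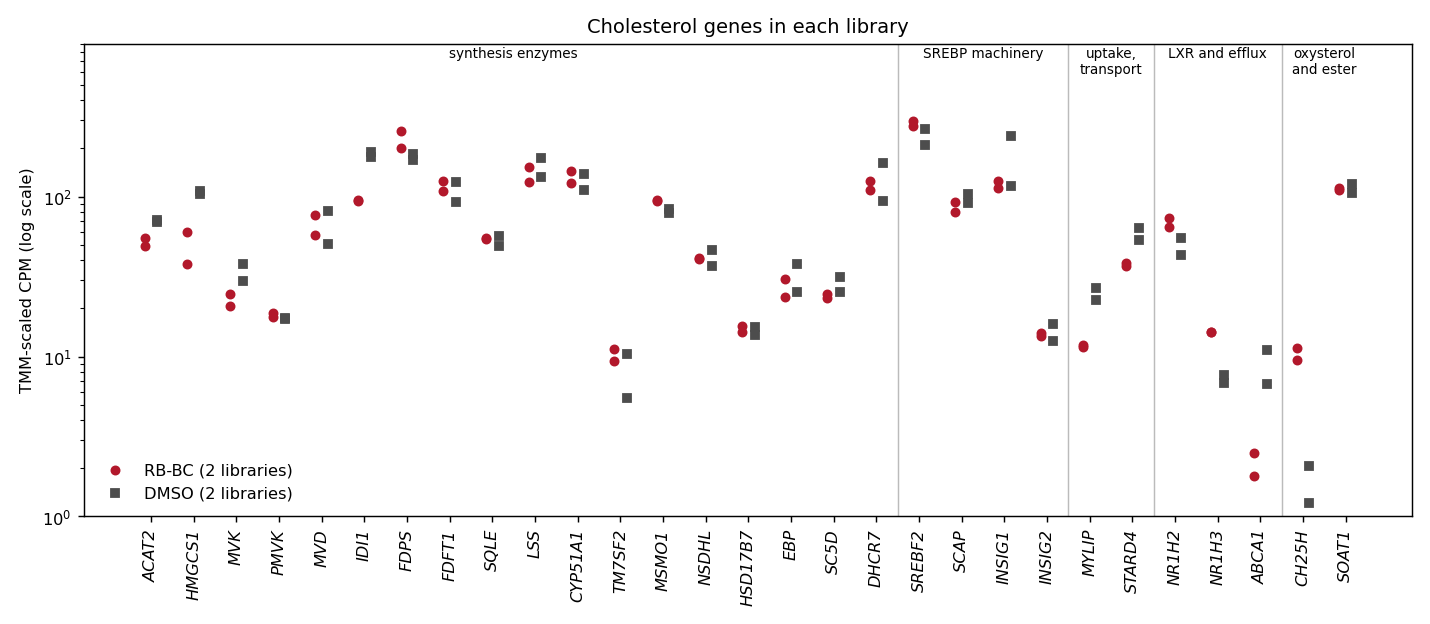
TMM-scaled CPM of the 29 tested members in each library, on a log axis, with RB-BC as circles and DMSO as squares, and the members grouped by role. The RB-BC libraries lie below the DMSO libraries for HMGCS1, IDI1, MYLIP, STARD4 and ABCA1 and above them for NR1H3 and CH25H, and the DMSO libraries lie far apart for INSIG1 (117 and 241 CPM).

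Promoter letters were read for the members the results turn on, to show which of the motifs known from sterol-regulated genes they hold. RefSeq windows (GRCh38.p14), from 250 bases before to 50 bases after a transcription start, were found for 26 of the 30 members. Motifs were searched on both strands: the sterol regulatory element TCACNCCAC, bound by SREBP, the CCAAT box (CCAAT), bound by NF-Y, which acts together with SREBP, and the GC box (GGGCGG), bound by Sp1. The stretches below are the 250 bases before a start, 5′ to 3′ on the gene's strand, with sterol regulatory elements and CCAAT boxes (ATTGG where on the other strand) in capitals. SREBF2 is shown as the member with a sterol regulatory element, HMGCS1, IDI1, STARD4 and MYLIP as members that fell, ABCA1 as the member with the largest fall and CH25H as that with the largest rise. Their values follow role by role.
SREBF2: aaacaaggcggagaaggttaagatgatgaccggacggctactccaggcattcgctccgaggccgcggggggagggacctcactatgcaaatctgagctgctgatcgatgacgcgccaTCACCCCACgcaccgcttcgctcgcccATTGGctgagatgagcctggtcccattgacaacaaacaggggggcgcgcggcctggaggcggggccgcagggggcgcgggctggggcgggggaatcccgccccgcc
HMGCS1: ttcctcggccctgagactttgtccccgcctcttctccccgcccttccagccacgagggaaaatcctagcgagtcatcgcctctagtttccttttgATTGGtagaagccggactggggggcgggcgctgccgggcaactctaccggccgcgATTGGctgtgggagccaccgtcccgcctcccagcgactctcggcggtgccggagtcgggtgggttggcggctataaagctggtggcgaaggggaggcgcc
IDI1: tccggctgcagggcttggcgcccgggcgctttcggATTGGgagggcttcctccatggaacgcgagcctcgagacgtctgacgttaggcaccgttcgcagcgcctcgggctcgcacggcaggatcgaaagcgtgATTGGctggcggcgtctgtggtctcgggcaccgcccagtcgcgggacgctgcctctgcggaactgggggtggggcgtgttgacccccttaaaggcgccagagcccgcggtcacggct
STARD4: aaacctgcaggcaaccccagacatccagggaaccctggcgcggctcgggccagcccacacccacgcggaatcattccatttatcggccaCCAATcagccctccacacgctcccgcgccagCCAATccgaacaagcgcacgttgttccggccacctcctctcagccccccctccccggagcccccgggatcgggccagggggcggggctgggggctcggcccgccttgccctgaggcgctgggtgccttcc
MYLIP: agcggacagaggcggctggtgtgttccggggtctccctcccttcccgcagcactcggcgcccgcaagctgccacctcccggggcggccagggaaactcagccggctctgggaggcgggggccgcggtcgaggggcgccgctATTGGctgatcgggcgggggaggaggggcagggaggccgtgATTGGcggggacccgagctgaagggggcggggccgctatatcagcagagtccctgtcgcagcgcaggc
ABCA1: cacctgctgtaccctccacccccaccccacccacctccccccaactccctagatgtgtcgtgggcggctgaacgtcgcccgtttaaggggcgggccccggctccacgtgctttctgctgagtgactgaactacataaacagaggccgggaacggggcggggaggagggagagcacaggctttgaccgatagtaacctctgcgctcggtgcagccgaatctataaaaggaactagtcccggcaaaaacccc
CH25H: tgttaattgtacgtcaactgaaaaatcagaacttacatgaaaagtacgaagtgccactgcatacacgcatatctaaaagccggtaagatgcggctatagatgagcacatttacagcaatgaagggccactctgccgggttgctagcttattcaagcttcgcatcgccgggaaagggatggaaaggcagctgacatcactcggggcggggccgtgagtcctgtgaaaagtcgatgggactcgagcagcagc

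These stretches lie at chr22:41832855-41833104 (SREBF2, plus strand), chr5:43313413-43313662 (HMGCS1, minus strand), chr10:1049120-1049369 (IDI1, minus strand) and chr5:111512536-111512785 (STARD4, minus strand). The others lie at chr6:16128836-16129085 (MYLIP, plus strand), chr9:104928156-104928405 (ABCA1, minus strand) and chr10:89207318-89207567 (CH25H, minus strand). HMGCS1 and IDI1 have further annotated starts, and the other window of HMGCS1 and 1 of the 3 windows of IDI1 hold no CCAAT box. The starts used in these cells were not measured here. The sterol regulatory element, in this spelling, was found in 1 of 26 members, SREBF2, where it begins 133 bases before the start. It occurs in 1.39% of the 27305 genes with a window. CCAAT boxes were found in 13 of 15 synthesis enzymes and in 6 of the other 11 members, against 39.7% of all genes with a window. HMGCS1, IDI1, STARD4 and MYLIP, all of which fell, each hold a pair of CCAAT boxes in the stretches shown, and ABCA1 and CH25H hold none, though they changed in opposite directions. NR1H3, which rose and is not shown, holds a CCAAT box 28 bases before an annotated start. At least a pair of CCAAT boxes also stands in the window of MVK, MVD, FDPS, MSMO1, NSDHL, HSD17B7, EBP and DHCR7. None of these enzymes passed, so a pair did not set the fallers apart from them. How many of all genes hold a pair was not counted. GC boxes were found in 14 of the 15 enzymes and all 11 others, against 48.3% of all genes. In SREBF2 the sterol regulatory element and the CCAAT box do not overlap. The shares are descriptions without a test, and a missing match says only that these letters are not in the window.

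Among the synthesis enzymes, the changes that passed lay in the steps before squalene. HMGCS1, which condenses acetoacetyl-CoA and acetyl-CoA to HMG-CoA, had 37.8 and 60.1 CPM in RB-BC, against 108 and 104 CPM in DMSO. The groups did not overlap, and the RB-BC libraries were less alike than the DMSO libraries. HMGCS1 fell to a mean of 48.9 ± 15.8 CPM in RB-BC, against 106 ± 2.78 CPM in DMSO (SD, n = 2 each), a log2 fold change of −1.11 ± 0.24 (SE, edgeR adjusted p = 0.0310). IDI1, the isomerase that converts isopentenyl diphosphate to its reactive isomer, had 95.7 and 94.0 CPM in RB-BC, against 176 and 190 CPM in DMSO. Its groups were tight and did not overlap, and its log2 fold change was −0.95 ± 0.14 (edgeR adjusted p = 0.0140). The call of HMGCS1 was lost on removal of RB-BC 1 (−0.81, edgeR adjusted p = 0.175) and, narrowly, of DMSO 1 (−1.09, edgeR adjusted p = 0.0503), and with library totals alone (−1.07, edgeR adjusted p = 0.0556). That of IDI1 was lost on removal of RB-BC 1 (−0.96, edgeR adjusted p = 0.134) or RB-BC 2 (−0.93, edgeR adjusted p = 0.106). In fits without RB-BC 1 or RB-BC 2 the spread comes from the DMSO pair alone, and 1.47% and 3.23% of all tested genes were called. Per the GENCODE 29 annotation, antisense genes cover 703 exonic bases of HMGCS1 and 643 of IDI1 (14.8% of its exon length), and without a stated strand setting their reads cannot be told apart. Opposite-strand genes also overlap exons of ACAT2, MVK, FDPS, FDFT1, LSS, CYP51A1, SREBF2 and STARD4. The overlap is largest for ACAT2, where SOD2-OT1 covers 33.9% and SOD2 26.5% of its exon length.

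The other 5 enzymes of the mevalonate steps did not pass. ACAT2, which joins acetyl-CoA units to acetoacetyl-CoA, had 55.5 and 49.4 CPM in RB-BC, against 69.0 and 71.2 CPM in DMSO (log2 fold change −0.42 ± 0.14, edgeR adjusted p = 0.0928). MVK, the mevalonate kinase, had 24.6 and 20.8 CPM in RB-BC, against 29.7 and 38.01 CPM in DMSO (−0.58 ± 0.19, edgeR adjusted p = 0.0885). Both genes lay lower in each RB-BC library than in either DMSO library, and MVK passed without DMSO 1 (−0.74, edgeR adjusted p = 0.0341). FDPS, the farnesyl diphosphate synthase, had 257 and 202 CPM in RB-BC, against 169 and 186 CPM in DMSO (0.37 ± 0.17, edgeR adjusted p = 0.184), so it lay the other way without passing. PMVK, the phosphomevalonate kinase, was at 0.08 ± 0.15 and MVD, the decarboxylase that follows it, at 0.03 ± 0.27. Over the 7 enzymes from ACAT2 to FDPS the median log2 fold change was −0.42, with 2 lower and 0 higher by edgeR's test, and 4 at an unadjusted p under 0.05, which were all lower. Over all tested genes 35.1% had an unadjusted p under 0.05.

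None of the 11 enzymes from squalene synthase to the last reductase passed, and 0 had an unadjusted p under 0.05, against 35.1% of all tested genes. DESeq2, limma-voom and edgeR's exact test also called 0 of them. FDFT1, the squalene synthase, had 125 and 109 CPM in RB-BC, against 92.6 and 123 CPM in DMSO. SQLE, the squalene epoxidase, had 55.0 and 54.6 CPM in RB-BC, against 49.3 and 56.6 CPM in DMSO (0.05 ± 0.14, 95% interval −0.30 to 0.40). LSS, which closes the sterol rings, had 153 and 124 CPM in RB-BC, against 133 and 174 CPM in DMSO. For these 3 genes the groups overlapped.

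CYP51A1, the lanosterol demethylase, had 122 and 145 CPM in RB-BC, against 110 and 138 CPM in DMSO. MSMO1, a sterol methyl oxidase, had 94.7 and 94.2 CPM in RB-BC, against 84.2 and 78.4 CPM in DMSO, without overlap (0.22 ± 0.13, edgeR adjusted p = 0.300). DHCR7, the reductase of the final double bond in one branch, had 109 and 126 CPM in RB-BC, against 94.3 and 161 CPM in DMSO. The spread of DHCR7 was thus mostly between the DMSO libraries. NSDHL (−0.02 ± 0.17) and HSD17B7 (0.03 ± 0.17), which act in removal of the sterol methyl groups, lay close to 0. The largest value among the 11 was 0.38 ± 0.32 for the sterol reductase TM7SF2 and the smallest −0.25 ± 0.17 for the desaturase SC5D, with the sterol isomerase EBP at −0.23 ± 0.25. The 95% intervals of the 11 differed in width, with the lowest end at −0.83 for EBP and the highest at 1.16 for TM7SF2. TM7SF2, with 9.43 and 11.1 CPM in RB-BC, against 5.50 and 10.3 CPM in DMSO, passed without DMSO 2 (0.90, edgeR adjusted p = 0.0406) and was at −0.0080 without DMSO 1.

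**Figure D2:**
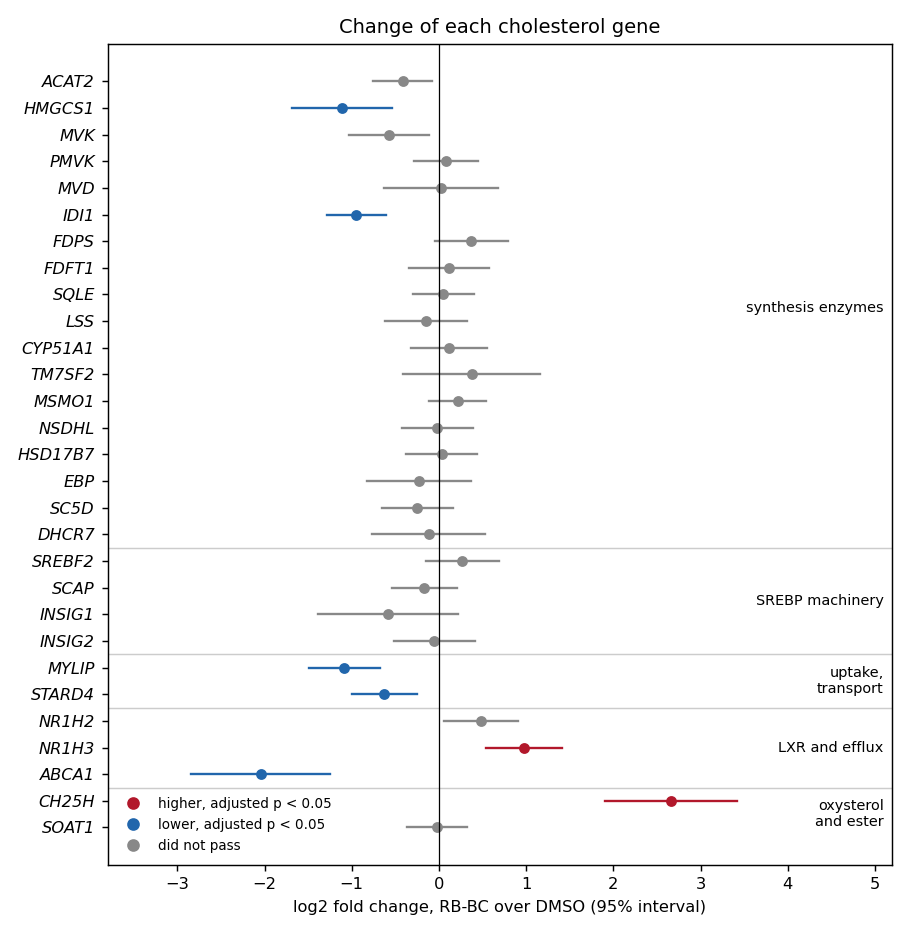
Log2 fold change of each tested member, RB-BC over DMSO, with its 95% interval from the fit, coloured by whether it passed an adjusted p of 0.05. Among the synthesis enzymes the intervals of HMGCS1 (−1.11) and IDI1 (−0.95) lie well below 0 and those of the enzymes from FDFT1 to DHCR7 all span 0.

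The enzymes differed widely in level. Per kilobase of exon, FDPS was the most abundant, at 61.7 ± 10.5 CPM per kb in RB-BC and 47.7 ± 3.20 CPM per kb in DMSO. CYP51A1 followed in RB-BC at 37.3 ± 4.63 CPM per kb, against 34.5 ± 5.48 CPM per kb in DMSO, and then MSMO1 at 32.6 ± 0.121 CPM per kb, against 28.1 ± 1.41 CPM per kb in DMSO. FDPS stood above the next enzyme by more than these spreads in RB-BC, whereas CYP51A1 and MSMO1 lay within theirs in RB-BC. IDI1 stood at 21.8 ± 0.272 CPM per kb in RB-BC, level with FDFT1 (22.4 ± 2.23 CPM per kb), whereas in DMSO it stood at 42.1 ± 2.26 CPM per kb, behind only FDPS. The least abundant were TM7SF2, HSD17B7, MVK and SC5D, at 3.01 to 4.30 CPM per kb in RB-BC and 2.32 to 5.22 CPM per kb in DMSO. Another protein-coding gene on the same strand covers 79.4% of the exon length of CYP51A1. GENCODE 29 names 8 pseudogenes after FDPS, 3 after CYP51A1 and 2 after HSD17B7. Neither that gene nor any of these pseudogenes has a row in the count table. How reads shared with them were counted is not stated, so the levels of these genes are uncertain.

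**Figure D3:**
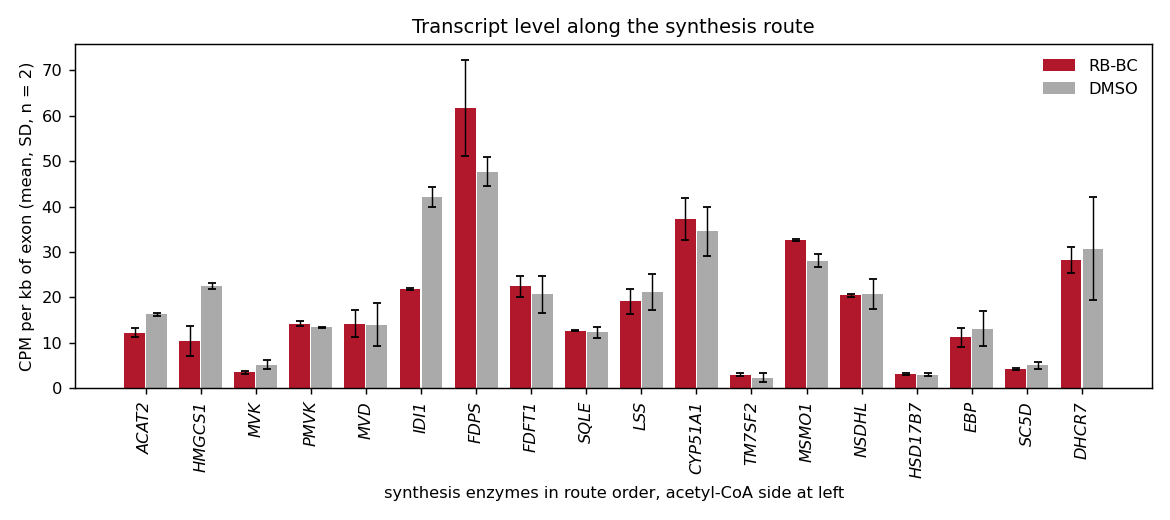
Mean CPM per kilobase of exon for the 18 synthesis enzymes in RB-BC (left bar) and DMSO (right bar), in the order of the route, with error bars of 1 SD over n = 2 libraries. HMGCS1 (10.4 and 22.5) and IDI1 (21.8 and 42.1) are lower in RB-BC, and FDPS is the highest in both groups.

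The DMSO libraries differed from each other over the route. Of the 18 enzymes 16 were higher in DMSO 2 than in DMSO 1, with a median log2 ratio of 0.31, while the median over all tested genes was 0.00054. Between RB-BC 2 and RB-BC 1, 4 of 18 were higher, with a median of −0.08. The summed level of the 18 enzymes was 1346 and 1267 CPM in RB-BC, against 1288 and 1559 CPM in DMSO, so the RB-BC sums lay on either side of that of DMSO 1. Without DMSO 1 the values of MVD, FDFT1, SQLE, CYP51A1, TM7SF2 and HSD17B7 turned negative, and without DMSO 2 those of LSS, NSDHL, EBP and DHCR7 turned positive, none of them past the threshold. HMGCS1 and IDI1 were the synthesis enzymes called lower when DMSO 2 was left out, as they were with all libraries. DMSO 2 is also the library with 21.7% mitochondrially encoded counts. With the mitochondrially encoded genes removed before scaling, HMGCS1 was at −1.11 and IDI1 at −0.95, and the same 7 members were called.

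The SREBP machinery had 0 of 4 genes called by edgeR, 0 at an unadjusted p under 0.05 (35.1% of all tested genes), and 0 by DESeq2, limma-voom or edgeR's exact test. SREBF2, which encodes SREBP2, had 297 and 275 CPM in RB-BC, against 210 and 266 CPM in DMSO (0.27 ± 0.17, edgeR adjusted p = 0.310). SCAP had 92.7 and 80.3 CPM in RB-BC, against 90.8 and 103 CPM in DMSO (−0.17 ± 0.15, edgeR adjusted p = 0.476). SREBF2 was higher in both RB-BC libraries than in DMSO by a margin that did not pass, and SCAP overlapped. INSIG1, an SREBP2 target that closes the feedback loop, had 125 and 114 CPM in RB-BC, against 117 and 241 CPM in DMSO. The RB-BC libraries lay close to DMSO 1, and DMSO 2 alone was high. The log2 fold change of INSIG1 was accordingly −0.58 ± 0.33 with all libraries (edgeR adjusted p = 0.257), −1.01 once DMSO 1 was removed (edgeR adjusted p = 0.0121) and 0.03 once DMSO 2 was removed (edgeR adjusted p = 0.871). INSIG2, its paralog, had 14.02 and 13.5 CPM in RB-BC, against 16.0 and 12.4 CPM in DMSO (−0.05 ± 0.19, edgeR adjusted p = 0.870).

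Both genes of uptake control and sterol transport fell. MYLIP encodes IDOL, a ubiquitin ligase that sends lipoprotein receptors to the lysosome and is itself an LXR target. It had 11.5 and 11.8 CPM in RB-BC, against 22.6 and 26.8 CPM in DMSO, with no overlap, and its log2 fold change was −1.09 ± 0.17 (edgeR adjusted p = 0.0150). STARD4, a soluble protein that moves sterols between membranes and is an SREBP2 target, had 38.4 and 37.0 CPM in RB-BC, against 63.4 and 53.2 CPM in DMSO. It fell by 0.63 on the log2 scale (SE 0.15, edgeR adjusted p = 0.0432), close to the threshold. MYLIP lost its call on removal of RB-BC 1 (−1.06, edgeR adjusted p = 0.123) or RB-BC 2 (−1.11, edgeR adjusted p = 0.0746). STARD4 lost its own on removal of RB-BC 1 (−0.65, edgeR adjusted p = 0.270) or RB-BC 2 (−0.60, edgeR adjusted p = 0.266) and with library totals alone (−0.59, edgeR adjusted p = 0.154).

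The LXR and efflux genes moved in different directions. NR1H3, which encodes LXR alpha, had 14.3 and 14.3 CPM in RB-BC, against 6.85 and 7.70 CPM in DMSO. The libraries of each group were close together, and the log2 fold change was 0.97 ± 0.18 (edgeR adjusted p = 0.0218). NR1H2, which encodes LXR beta, had 73.0 and 64.5 CPM in RB-BC, against 55.3 and 42.99 CPM in DMSO (0.48 ± 0.18, edgeR adjusted p = 0.110), and it passed without DMSO 1 (0.68, edgeR adjusted p = 0.0307). Per kilobase of exon NR1H2 stayed the more abundant receptor, at 18.3 ± 1.59 CPM per kb in RB-BC and 13.1 ± 2.33 CPM per kb in DMSO, whereas NR1H3 was at 3.15 CPM per kb in RB-BC and 1.60 CPM per kb in DMSO. ABCA1, the exporter that loads cholesterol onto apolipoprotein A-I, had 1.80 and 2.49 CPM in RB-BC, against 6.77 and 10.9 CPM in DMSO. It was thus 4.13-fold lower in RB-BC, with no overlap, at a log2 fold change of −2.05 ± 0.33 (edgeR adjusted p = 0.0166). The DMSO libraries were less alike for ABCA1, whose value was −1.66 without DMSO 2 and −2.35 without DMSO 1. On removal of RB-BC 1 neither ABCA1 (−1.83, edgeR adjusted p = 0.0886) nor NR1H3 (0.97, edgeR adjusted p = 0.147) passed, and NR1H3 also missed on removal of RB-BC 2 (0.98, edgeR adjusted p = 0.111). ABCG1, the exporter to high-density lipoprotein, had 0 counts in every library. Counting error alone allows up to 3 counts per library there, or 0.0684 to 0.0692 CPM in RB-BC and 0.0797 to 0.0895 CPM in DMSO. Exons of ACP2 on the opposite strand cover 4.2% of the exon length of NR1H3, and ACP2 itself was at −0.20 ± 0.17 (edgeR adjusted p = 0.429).

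CH25H had the largest change of the members. It encodes cholesterol 25-hydroxylase, which makes an oxysterol that binds INSIG proteins, holds back SREBP2 and activates LXR, and it is known as an interferon-inducible gene. It had 11.2 and 9.51 CPM in RB-BC, against 1.22 and 2.06 CPM in DMSO, from 487 and 417 counts in RB-BC and 46 and 69 counts in DMSO. The groups lay far apart, and CH25H rose 6.33-fold, to a mean of 10.4 ± 1.21 CPM in RB-BC, against 1.64 ± 0.592 CPM in DMSO (SD, n = 2 each). The log2 fold change was 2.66 ± 0.31 (edgeR adjusted p = 0.00939), and it was the member that stayed called with any 1 library left out, at 2.33 to 3.08. SOAT1, the acyltransferase that stores cholesterol as esters, had 110 and 113 CPM in RB-BC, against 120 and 106 CPM in DMSO (−0.02 ± 0.14, 95% interval −0.37 to 0.33, edgeR adjusted p = 0.933).

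**Figure D4:**
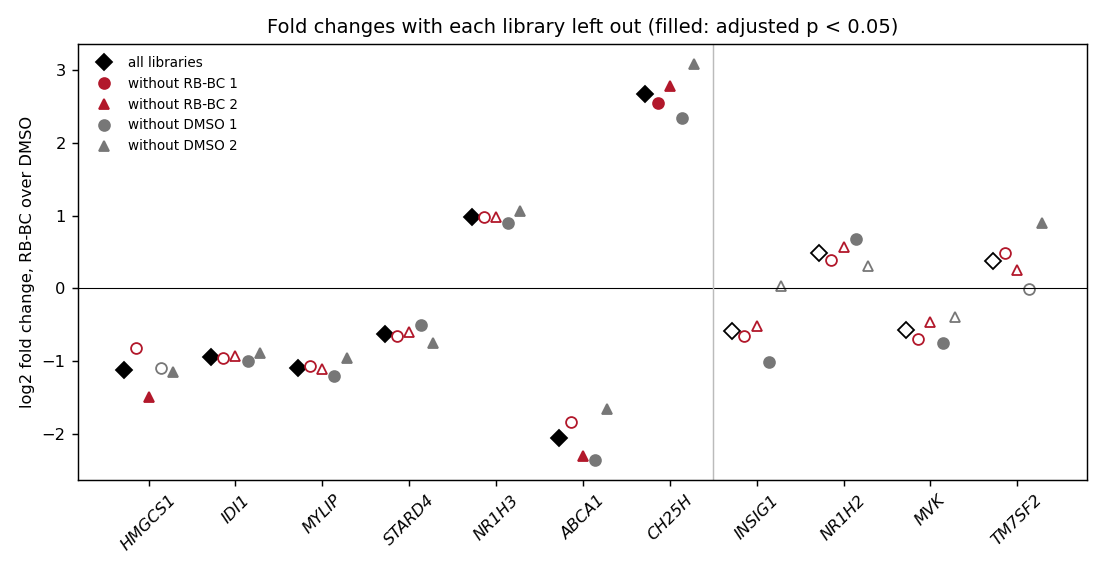
Log2 fold change, RB-BC over DMSO, of the 7 called members (left of the line) and of the 4 members whose call appears when a library is left out (right), with all libraries and with each library left out in turn, filled where edgeR's adjusted p was under 0.05. CH25H stays filled throughout (2.33 to 3.08), while INSIG1 runs from −1.01 without DMSO 1 to 0.03 without DMSO 2.

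Set side by side, the synthesis enzymes had 0 of 18 higher and 2 lower, with a median log2 fold change of 0.0053. The 11 tested members of the other roles had 2 higher and 3 lower, with a median of −0.05 and a range from −2.05 to 2.66. The enzymes spanned −1.11 to 0.38. Called members made up 11.1% of the enzymes and 45.5% of the other members, against 16.1% of all tested genes, and the difference between the groups of members was not tested.

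The remaining genes of the pathway, in 6 lists, gave 72 genes with 68 tested, of which 3 rose and 4 fell, or 10.3% called. Their median log2 fold change was −0.0024. In the isoprenoid branch, which makes prenyl groups, dolichol and ubiquinone, 0 of 11 rose and 1 fell. PDSS1, which builds the ubiquinone side chain, had 11.7 and 10.7 CPM in RB-BC, against 23.7 and 28.3 CPM in DMSO (−1.21 ± 0.17, edgeR adjusted p = 0.0128). Among helpers of the sterol branch 0 of 10 passed by edgeR, with 3 at an unadjusted p under 0.05 (35.1% of all tested genes) and a list median of −0.31. Of 12 genes of SREBP processing and sterol-dependent degradation, 1 rose. That gene, RNF145, a ubiquitin ligase of the endoplasmic reticulum, had 144 and 145 CPM in RB-BC, against 96.8 and 97.5 CPM in DMSO (0.58 ± 0.13, edgeR adjusted p = 0.0381). SREBF1, which encodes the related SREBP1 and was named after its value was seen, did not pass (−0.55 ± 0.18, edgeR adjusted p = 0.0918). PDSS1 lost its call on removal of RB-BC 1 (−1.28, edgeR adjusted p = 0.0858) or RB-BC 2 (−1.15, edgeR adjusted p = 0.0678), as did RNF145 (0.59, edgeR adjusted p = 0.282, and 0.57, edgeR adjusted p = 0.250).

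Lipoprotein uptake and lysosomal export had 1 of 10 genes higher and 1 lower. NPC1, which exports cholesterol from the lysosome, had 386 and 404 CPM in RB-BC, against 189 and 182 CPM in DMSO (1.09 ± 0.14, edgeR adjusted p = 0.0112). In intracellular sterol transport 1 of 14 genes rose and 1 fell. GRAMD1A, which draws accessible cholesterol from the plasma membrane to the endoplasmic reticulum, had 84.0 and 70.2 CPM in RB-BC, against 34.0 and 37.6 CPM in DMSO (1.11 ± 0.16, edgeR adjusted p = 0.0132). OSBPL11, an oxysterol-binding protein relative, had 26.0 and 26.5 CPM in RB-BC, against 37.9 and 39.6 CPM in DMSO (−0.56 ± 0.14, edgeR adjusted p = 0.0463).

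In the list of LXR targets, partners and oxysterol enzymes, 0 of the 11 tested genes rose and 1 fell. That is 9.09% called, against 16.1% of all tested genes, and the list does not hold every LXR target. LPCAT3, a phospholipid-remodelling LXR target, had 22.8 and 20.6 CPM in RB-BC, against 41.3 and 55.7 CPM in DMSO (−1.16 ± 0.19, edgeR adjusted p = 0.0181). PLTP, a phospholipid transfer protein and LXR target named after its value was seen, lay the other way without passing, at 1.57 and 2.12 CPM in RB-BC, against 0.691 and 0.776 CPM in DMSO (1.33 ± 0.35, edgeR adjusted p = 0.0535). Without RB-BC 1 and without RB-BC 2, NPC1 (edgeR adjusted p = 0.0873 and 0.0707), OSBPL11 (edgeR adjusted p = 0.330 and 0.270) and LPCAT3 (edgeR adjusted p = 0.0972 and 0.0922) did not pass. GRAMD1A missed on removal of RB-BC 1 (0.97, edgeR adjusted p = 0.107).

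**Figure D5:**
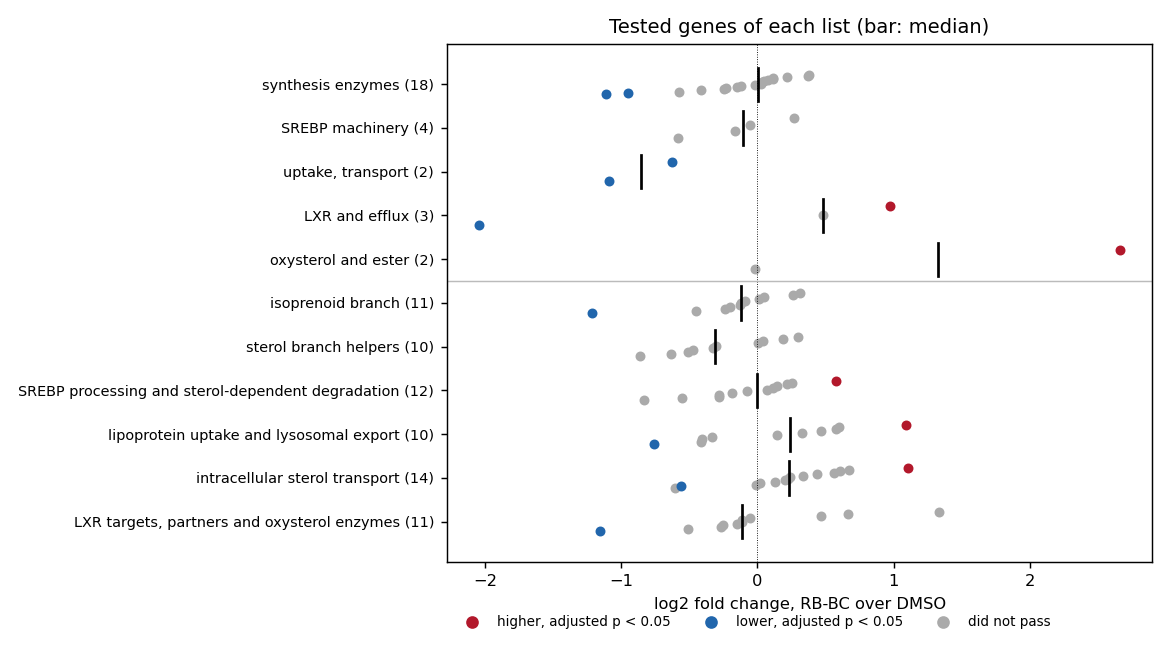
Log2 fold change, RB-BC over DMSO, of every tested gene in the 5 role groups of members (above the line) and the 6 other pathway lists (below it), with the number tested in brackets, a bar at each median and colour where edgeR's adjusted p was under 0.05. The synthesis enzymes centre on a median of 0.0053, and the widest values are those of ABCA1 (−2.05) and CH25H (2.66).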

How the data were processed

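RNA was sequenced in 4 libraries, 2 per group, from 1.4 µg of total RNA each with an mRNA library kit, per the labels' protocols. The authors deposited whole-number read counts per Ensembl gene, and the values show no normalization. No source used here gives the aligner, the counter, the annotation or the strand setting. The submitters' processing notes name GRCm38 and mm10, which are mouse builds, while the identifiers are human, so no coordinates of the count table are used. Symbols were matched for 20224 of 20263 identifiers (39 had none). Groups came from the sample titles. Within each group the paired libraries were distinct beyond counting error, with chi-square over its degrees of freedom at 38.8 for RB-BC and 246 for DMSO.

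The low-count filter was filterByExpr with a minimum count of 10 and a minimum total of 15. Counts were scaled by TMM and compared with edgeR 4.0.16 in R 4.3.3, by its quasi-likelihood test, two-sided, with Benjamini-Hochberg adjustment over 13744 genes at 0.05. Each log2 fold change is that of RB-BC against DMSO, and its SE is its size divided by the root of its F statistic. CPM values are TMM-scaled. CPM per kb divides by the merged exon length in GENCODE 29. Ratios between libraries added 0.1 CPM. An exact permutation test of 2 against 2 libraries cannot go below a two-sided p of 0.333, so none was used. The test was tried on simulated counts that gave both groups the same dispersion per gene, so their unequal spread was not tried. Members and lists were chosen with earlier results of these data known. All members are named, and other pathway genes where they passed, except 1 gene that is counted but not reported here. Alternatives were RLE size factors, library totals, other filters, DESeq2 1.42.0, limma-voom (limma 3.58.1), edgeR's exact test, a replicate block, removal of mitochondrially encoded genes and each library left out. The sequences are RefSeq's.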

Additional observations from a re-analysis of the deposited data

How the results depend on the processing

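Of 377 member values under 13 alternatives, 339 kept their direction and side of the threshold, 15 lost a call, 4 gained one and 19 changed sign, each of these an uncalled value. With library totals alone, 415 genes, 3 members and 1 synthesis enzyme (IDI1) were called lower, against 1035, 5 and 2, and 65.6% of calls were higher, against 53.3%. HMGCS1 (edgeR adjusted p = 0.0556), STARD4 (edgeR adjusted p = 0.154), RNF145 (edgeR adjusted p = 0.0808) and OSBPL11 (edgeR adjusted p = 0.156) were then lost. DESeq2 called 1583 genes lower. Without the low-count filter STARD4 (edgeR adjusted p = 0.0508) and OSBPL11 (edgeR adjusted p = 0.0549) were lost. STARD4 was also lost with the replicate number as a block (edgeR adjusted p = 0.0570). Under that block RNF145 (edgeR adjusted p = 0.0797) and OSBPL11 (edgeR adjusted p = 0.0828) were also lost, and 2 members were called higher and 4 lower. The numbers share only a label, with deviations of same-numbered libraries correlated at −0.065 over genes. With 1 library left out, 149 to 1888 genes were called higher and 56 to 1760 lower, 1 to 3 members higher and 0 to 6 lower, and 0 to 1 synthesis enzymes higher and 0 to 2 lower. The fewest calls came without RB-BC 1. The lone library is then assumed to vary like the other group. The sign changed with library totals alone for NSDHL (0.048) and SOAT1 (0.021). With 1 library left out it changed for MVD (−0.28 to 0.42), FDFT1 (−0.072 to 0.33), SQLE (−0.045 to 0.15), CYP51A1 (−0.042 to 0.28), TM7SF2 (−0.0080 to 0.90), HSD17B7 (−0.046 to 0.11), INSIG2 (−0.22 to 0.15), SOAT1 (−0.11 to 0.072), LSS (−0.33 to 0.060), NSDHL (−0.17 to 0.16), EBP (−0.50 to 0.097), DHCR7 (−0.45 to 0.32) and INSIG1 (−1.01 to 0.030), whose extremes came from leaving out DMSO 1 or DMSO 2. The cause was not tested. With 2 libraries a group, the width of the intervals limits what single enzymes can show.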
